A study of Mus musculus with 8 samples.

Results

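Potassium channel genes were followed in the hearts of mice, male and 8 weeks old, that had or lacked Elmsan1 in cardiomyocytes. The members were chosen by symbol: every protein-coding gene of the table whose GENCODE M21 symbol begins with Kcn, plus Abcc8 and Abcc9, the sulfonylurea receptors that complete the ATP-sensitive channel. This rule gave 96 of the 45706 genes. RNA sequencing of whole heart was made from 8 mice. The cKO group (n = 4) had the genotype Elmsan1 fl/fl;aMHC-Cre+/-, in which Cre recombinase under the αMHC (Myh6) promoter acts in cardiomyocytes and leaves the gene intact in other heart cells. The floxed controls (n = 2) were Elmsan1 fl/fl without the transgene, and the Cre controls (n = 2) were aMHC-Cre+/- without floxed alleles. Elmsan1 is a subunit of a histone deacetylase complex, and the comparisons ask which transcripts differ once it is lost from cardiomyocytes.

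Potassium channels return the heart cell to its resting voltage after each beat. Transient outward and delayed rectifier channels open as the cell depolarises and shorten the action potential, inward rectifiers hold the resting potential, and tandem-pore channels leak at rest. ATP-sensitive channels, built of an inward rectifier pore and a sulfonylurea receptor, open when cellular energy falls, and acetylcholine-gated channels slow the atria under vagal control. Most pores are joined by accessory proteins that set their trafficking and gating.

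Libraries held 17509564 to 25833259 estimated counts. Elmsan1 itself was at 12.0 to 15.5 CPM (counts scaled to library size and composition) in the cKO hearts and at 25.3 to 28.6 CPM in the controls. All 10 cardiomyocyte markers were detected, with a summed level of 51815 to 60893 CPM in cKO and 58847 to 63759 CPM in controls; 4 of them fell and 3 rose. Endothelial markers summed to 1212 to 1399 CPM in cKO and 922 to 1023 CPM in controls (5 of 8 rose, 1 fell), macrophage markers to 195 to 256 and 131 to 159 CPM (4 of 7 rose), nerve and glia markers to 14.5 to 20.5 and 11.2 to 11.8 CPM (2 of 6 rose), and atrial markers to 4432 to 9866 and 1666 to 3073 CPM (5 of 5 rose). Fibroblast sums (965 to 1396 and 755 to 1088 CPM, 1 of 7 rose) and smooth muscle and pericyte sums (542 to 939 and 619 to 712 CPM, 0 of 7 called) overlapped between the groups. No marker was at 0 in all libraries. In whole heart, fewer cells of a type and less RNA per cell cannot be told apart, and the part of these shifts in the results was not tested.

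Of the 96 members 53 had enough counts to be tested, and 27 of those were called at an adjusted p under 0.05 in cKO against the mean of both control groups, 16 lower and 11 higher. In that contrast 52.1% of all 15289 tested genes were called, 26.5% lower and 25.6% higher, so that the share of potassium channel genes called (50.9%) was near the background. A scarce member can pass the count filter through the group where it is high, so these counts describe the tested members only. Their median log2 fold change was 0.11, beside 0.04 over all genes tested. All 4 cKO values lay under all 4 control values for 14 tested members and above them for 9, where 25.9% and 23.4% of all genes tested did so. Falls were found among the abundant members. Of the 19 members with a mean of 10 CPM or more, 12 fell and none rose, beside 38.4% lower and 26.7% higher among all genes at that level. Of the 23 members between 1 and 10 CPM, 4 fell and 9 rose (17.4% and 39.1%), beside 15.3% and 27.6% of all genes at that level. Of the 11 tested members under 1 CPM none fell and 2 rose (18.2%), beside 5.28% and 16.4% of all genes there. The summed level of all 96 members was 1207, 1186, 1203 and 1068 CPM in the 4 cKO hearts, 1805 and 1741 CPM in the floxed hearts, and 1728 and 1767 CPM in the Cre hearts.

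Over all genes tested, rises numbered 3909 with all 8 libraries and 3601 without cKO replicate 4. They also became fewer in each fit that left 1 library in a control group. Among members too, the number of rises changed with the libraries kept and with the scaling. It was 7 without cKO replicate 4, 5 without floxed replicate 1, 5 without floxed replicate 2, 7 without Cre replicate 1 and 4 without Cre replicate 2, while the number of falls stayed between 12 and 17 when any 1 library was left out. Scaling by library size alone gave 14 lower and 15 higher of the 53 tested members, and upper-quartile scaling 15 and 15. Rises over all 15289 genes tested grew too, to 4753 (with 2981 lower) and to 4873 (with 3351 lower). Both scalings shifted the median of all genes, from 0.04 to 0.17 and to 0.16, a shift of all genes together that the values below, with TMM scaling, do not hold.

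**Figure D1:**
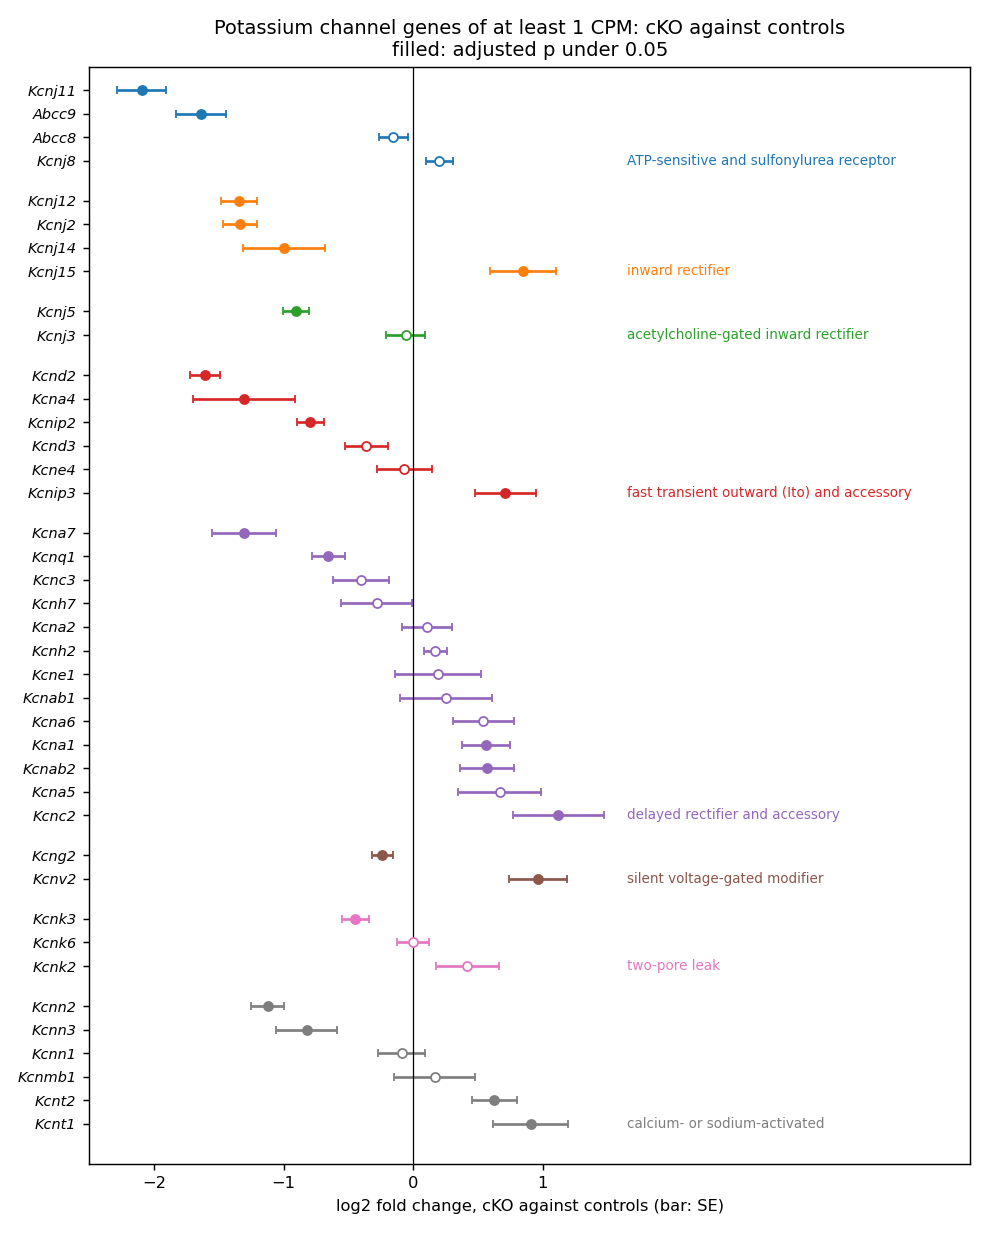
Log2 fold change of 40 members with a mean of at least 1 CPM, cKO (n = 4) against the mean of floxed (n = 2) and Cre (n = 2) hearts, grouped by role; bars are SE and filled points passed an adjusted p of 0.05. The ATP-sensitive pair Kcnj11 and Abcc9 lies far to the left of Abcc8 and Kcnj8.

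Among the 4 genes of ATP-sensitive channels, Kcnj11 and Abcc9 fell and their partners Kcnj8 and Abcc8 were not called. Kcnj11, the pore subunit of the ventricular muscle channel, was at 15.9, 9.49, 11.9 and 8.19 CPM in the cKO hearts, 57.0 and 48.0 CPM in floxed, and 46.1 and 43.2 CPM in Cre. All 4 cKO values lay well under every control value. The fall was 4.27-fold (log2 -2.10, SE 0.19; edgeR adjusted p = 3.33e-05), the largest of any member tested. Abcc9, the receptor subunit of muscle and vascular channels, was at 169, 95.3, 116 and 87.9 CPM in cKO, 348 and 356 CPM in floxed, and 345 and 408 CPM in Cre. These groups did not overlap either, and the fall was 3.11-fold (log2 -1.64, SE 0.19; adjusted p = 0.000128). Groups without overlap were found for 49.3% of all genes tested.

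Kcnj8, the pore subunit best known from vascular smooth muscle and pericytes, was at 32.8 to 43.2 CPM in cKO and 30.5 to 36.4 CPM in controls (log2 0.20, SE 0.10; adjusted p = 0.118). It was called higher under upper-quartile scaling, under library size alone and without cKO replicate 2 (log2 0.31, 0.33 and 0.28), and its adjusted p ranged from 0.0260 to 0.745 over the alternatives. Abcc8, the receptor subunit known from pancreatic beta cells and from atrial muscle, was at 41.2 to 52.7 CPM in cKO and 44.7 to 56.4 CPM in controls (log2 -0.15, SE 0.11; adjusted p = 0.275). The ranges of both genes overlapped between cKO and controls. None of the 7 smooth muscle and pericyte markers was called in this contrast: Rgs5 was at log2 -0.32, Pdgfrb at -0.12, Cspg4 at 0.09, Myh11 at 0.27, Acta2 at 1.01, Tagln at 1.24 and Cnn1 at 1.51. Acta2, smooth muscle actin, was called higher against floxed alone (adjusted p = 0.0381). The part of these markers in the value of Kcnj8 was not tested.

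These genes lie as neighbouring pairs, and in each pair 1 gene fell while the other was not called. On chromosome 7 of GRCm38, Kcnj11 (46093953 to 46100764, minus strand) lies 3758 bases from Abcc8 (46104523 to 46180033, minus strand). On chromosome 6, Kcnj8 (142564837 to 142571614, minus strand) lies 16247 bases from Abcc9 (142587862 to 142702315, minus strand). The sequences upstream of the start sites of the second pair are shown because the 2 genes share a locus and differed in response. Each is the 250 bases before the RefSeq start (GRCm38.p6, minus strand, 5′ to 3′), at chr6:142702275-142702524 for Abcc9 and at chr6:142571615-142571864 for Kcnj8. Capitals mark a GC box, GGGCGG on either strand.

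Abcc9: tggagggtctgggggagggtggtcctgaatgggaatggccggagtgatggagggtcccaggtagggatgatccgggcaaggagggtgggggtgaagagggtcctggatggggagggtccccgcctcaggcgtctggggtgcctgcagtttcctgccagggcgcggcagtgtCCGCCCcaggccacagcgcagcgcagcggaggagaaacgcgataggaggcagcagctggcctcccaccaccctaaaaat
Kcnj8: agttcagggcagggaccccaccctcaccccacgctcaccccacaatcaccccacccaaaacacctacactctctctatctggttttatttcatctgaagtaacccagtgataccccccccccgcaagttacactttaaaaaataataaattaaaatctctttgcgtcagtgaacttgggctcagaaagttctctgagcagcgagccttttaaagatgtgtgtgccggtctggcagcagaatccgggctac

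The Abcc9 window was 66.8% G or C with 12 CpG pairs and 1 GC box, and the Kcnj8 window 49.2% G or C with 6 CpG pairs and no GC box.

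Because the members of a pair changed unequally, the make-up of the ATP-sensitive transcripts differed. On a per-kilobase scale (CPM divided by the length of the longest annotated transcript), Kcnj11 made up 23.3%, 19.0%, 20.7% and 13.3% of the sum of Kcnj11 and Kcnj8 in the cKO hearts, against 51.7% to 56.6% in the 4 controls. Kcnj8 was therefore the more abundant pore transcript in every cKO heart and the less abundant in every control heart. Abcc9 made up 54.1% to 72.7% of the 2 receptor transcripts in cKO and 79.9% to 85.6% in controls, without overlap. The 4 genes together summed to 212 ± 39.3 CPM in the cKO hearts and to 497 ± 20.5 CPM in the control hearts (SD, n = 4 each).

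Inward rectifiers that hold the resting potential were lower as well. Kcnj2, which encodes the main inward rectifier of ventricular muscle, was at 23.0, 15.5, 17.7 and 15.0 CPM in cKO, 35.9 and 38.1 CPM in floxed, and 52.2 and 57.3 CPM in Cre. Every cKO value was under every control value, and the Cre hearts were the highest. The fall was 2.53-fold against both controls (log2 -1.34, SE 0.13; adjusted p = 3.21e-05), with log2 -1.06 against floxed and -1.62 against Cre. The 2 control groups did not differ after adjustment (Cre against floxed log2 0.57; unadjusted p = 0.00975, adjusted p = 1). Kcnj12, which encodes a second subunit of the same current, was at 9.26, 9.49, 13.1 and 9.52 CPM in cKO and at 21.2 to 30.5 CPM in controls, a fall of 2.54-fold (log2 -1.35, SE 0.14; adjusted p = 3.64e-05). Kcnj2 made up 43.8 ± 6.43% of the per-kilobase sum of both in cKO and 43.8 ± 8.45% in controls (SD, n = 4 each), with overlapping ranges.

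Of the weaker inward rectifiers, Kcnj14 fell (log2 -0.99, SE 0.32; adjusted p = 0.0213) from 1.46 ± 0.26 to 0.73 ± 0.25 CPM, and Kcnj15 rose (log2 0.85, SE 0.26; adjusted p = 0.0162) from 1.21 ± 0.26 to 2.17 ± 0.43 CPM (SD, n = 4 each). Kcnj14 was not called with library size alone, nor without cKO replicate 2, cKO replicate 3, floxed replicate 1 or Cre replicate 1, and Kcnj15 without floxed replicate 1 or Cre replicate 2; over the alternatives their adjusted p ranged from 0.00894 to 0.114 and from 0.00380 to 0.0721.

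The upstream windows of Kcnj2 and of Kcnd2, the transient outward pore described next, are printed as those of 2 members that fell together in every setting tried. They lie at chr11:111065914-111066163 and at chr6:21215096-21215345 (RefSeq, GRCm38.p6, plus strand), and capitals again mark the GC box.

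Kcnj2: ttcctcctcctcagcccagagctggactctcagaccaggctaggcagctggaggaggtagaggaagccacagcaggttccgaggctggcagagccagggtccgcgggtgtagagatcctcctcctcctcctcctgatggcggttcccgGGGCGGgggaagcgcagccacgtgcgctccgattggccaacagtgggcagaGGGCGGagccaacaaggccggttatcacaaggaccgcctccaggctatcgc
Kcnd2: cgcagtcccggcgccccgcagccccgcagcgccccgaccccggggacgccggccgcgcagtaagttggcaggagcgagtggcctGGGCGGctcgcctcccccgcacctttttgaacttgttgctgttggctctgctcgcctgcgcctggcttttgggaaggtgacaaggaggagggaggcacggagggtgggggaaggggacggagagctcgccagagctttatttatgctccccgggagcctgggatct

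Windows of 250 bases were matched for 70 of the 96 members, 9 of the 16 called lower and 6 of the 11 called higher. A GC box, which may overlap other motifs, was in 6 of the 9 windows of members called lower (66.7%), in 4 of the 13 windows of members called higher (30.8%), in 36.7% of the windows of members tested and not called, in 45.3% of the windows of all members, and in 32.7% of all 32851 windows of the table. Some genes have several windows: counted by gene, a GC box was found for 6 of 9 members called lower and 4 of 6 called higher, the same share (66.7%), for 52.4% of members not called and for 35.4% of all genes in the table. The MEF2 motif, the element AAGGTCA of oestrogen-related receptors and the GATA element AGATAA were searched on both strands too. None of them was in the 9 windows of members called lower, and none in the 30 windows of members tested and not called. Of the 13 windows of members called higher, 1 held the GATA element and none the other motifs. Of all windows, 2.92%, 4.08% and 9.99% held them. So few windows leave little room for a match, and the absence does not set the members called lower apart. The windows of members called lower had a median of 65.2% G or C, against 58.0% for those of members called higher, 58.8% for those not called and 52.4% over all windows. These matches describe letters in a window and were not tested.

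Acetylcholine-gated channels are built of Kcnj3 and Kcnj5, and only the second was called. Kcnj5 was at 54.2, 59.2, 56.3 and 44.7 CPM in cKO, 105 and 101 CPM in floxed, and 103 and 93.3 CPM in Cre, with no overlap. Kcnj5 fell 1.87-fold (log2 -0.91, SE 0.10; adjusted p = 5.22e-05). Kcnj3 was at 97.8, 141, 97.7 and 89.0 CPM in cKO and at 89.3 to 120 CPM in controls (log2 -0.06, SE 0.15; adjusted p = 0.764). Its direction turned positive under 6 alternatives, among them both changed scalings and the offset for length and GC content, without a call in any of them. The share of Kcnj5 in the per-kilobase sum of both was 31.9% to 39.1% in cKO and 48.7% to 53.8% in controls, without overlap. Kcnj3 shares 1621 exon bases with Gm26794 on the opposite strand, which had a mean of 214 counts beside 2424 for Kcnj3. Without a known strand setting, reads there cannot be told apart, which limits the level of Kcnj3 and this share. Kcnj3 and Kcnj5 are both known from the atria, and the 5 atrial markers, among them Nppa and Myl7, rose in the same hearts.

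**Figure D2:**
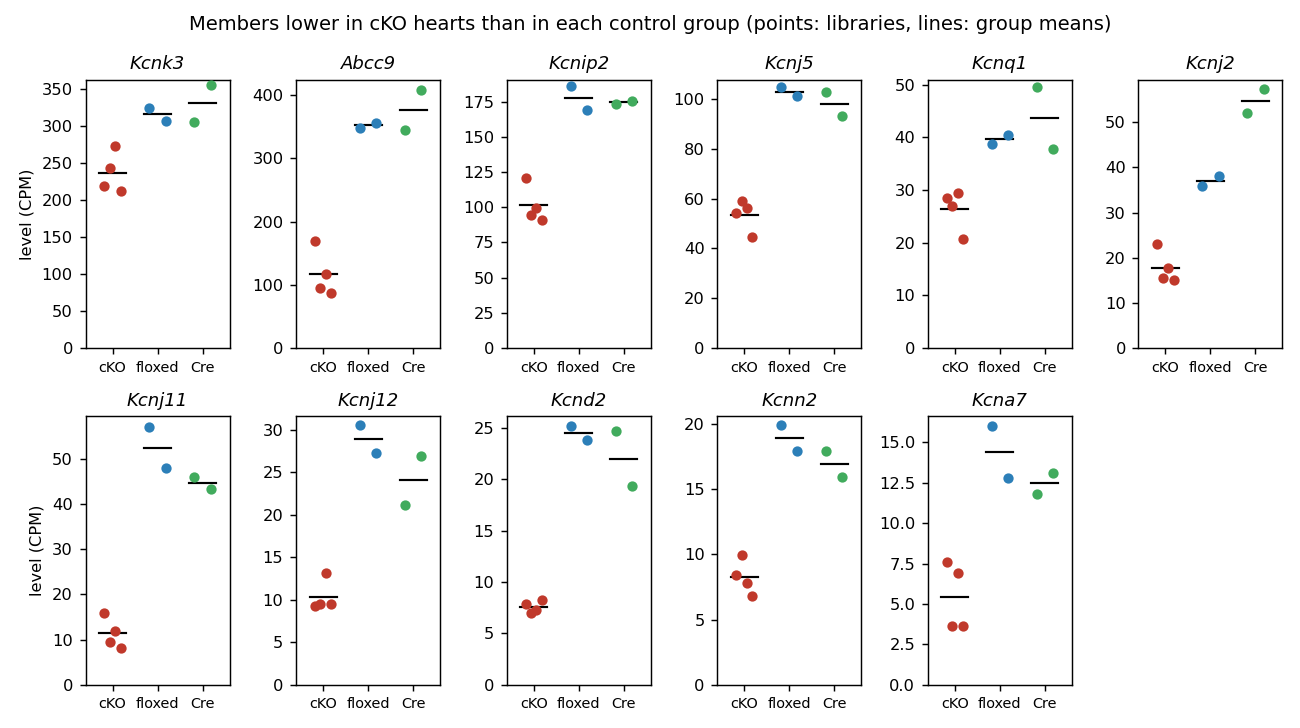
Level in CPM (vertical axes from 0) of 11 members called lower in cKO against both controls together, against floxed alone and against Cre alone; each point is a library and each line a group mean. In each of the 11 panels the 4 cKO points lie under the 4 control points. The panels were chosen by these calls, so the separation largely follows from the choice. Of all genes tested, 25.9% had all 4 cKO values under all 4 control values.

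The transient outward current is carried in mouse ventricle by Kcnd2 and Kcnd3 with their accessory subunit Kcnip2, and its slow form by Kcna4. Kcnd2 was at 7.89, 7.02, 7.32 and 8.23 CPM in cKO, 25.2 and 23.8 CPM in floxed, and 24.6 and 19.3 CPM in Cre. The cKO hearts were close to each other and far under the controls, a fall of 3.05-fold (log2 -1.61, SE 0.11; adjusted p = 1.34e-05). Kcnip2 was at 121, 94.5, 99.4 and 91.1 CPM in cKO, 186 and 169 CPM in floxed, and 173 and 176 CPM in Cre. Kcnip2 fell 1.74-fold (log2 -0.80, SE 0.10; adjusted p = 0.000123), again with no overlap.

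Kcnd3 averaged 16.0 ± 4.29 CPM over the cKO hearts and 20.5 ± 1.46 CPM over the control hearts (SD, n = 4 each), and the groups overlapped (log2 -0.36, SE 0.17; adjusted p = 0.0936). Without cKO replicate 2 it was called lower (log2 -0.53), and with the offset for length and GC its value was 0.02; its adjusted p ranged from 0.00897 to 0.934 over the alternatives. Kcnd2 made up 44.1%, 31.1%, 37.8% and 49.6% of the per-kilobase sum of the 2 pores in cKO and 57.0% to 64.8% in controls. On this per-kilobase scale Kcnd2 was thus the more abundant pore transcript in every control heart and the less abundant in every cKO heart. The order depends on the lengths used: in CPM, Cre replicate 2 had 19.3 for Kcnd2 and 20.2 for Kcnd3. Per kilobase there were 8.92 ± 1.75 Kcnip2 transcripts for each Kcnd2 or Kcnd3 transcript in cKO and 7.70 ± 0.62 in controls (SD, n = 4 each), which overlapped. Kcna4 was scarce, with a mean of 0.97 ± 0.44 CPM among cKO and 2.38 ± 0.88 CPM among control hearts. It fell (log2 -1.30, SE 0.39; adjusted p = 0.0168), with overlapping groups, and was not called without floxed replicate 2 or Cre replicate 1 (adjusted p from 0.00402 to 0.121 over the alternatives). Kcnip3, a calcium-binding relative of Kcnip2, rose from 1.86 ± 0.43 to 3.02 ± 0.58 CPM (log2 0.71, SE 0.24; adjusted p = 0.0267). Kcne4 was not called (log2 -0.07).

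**Figure D3:**
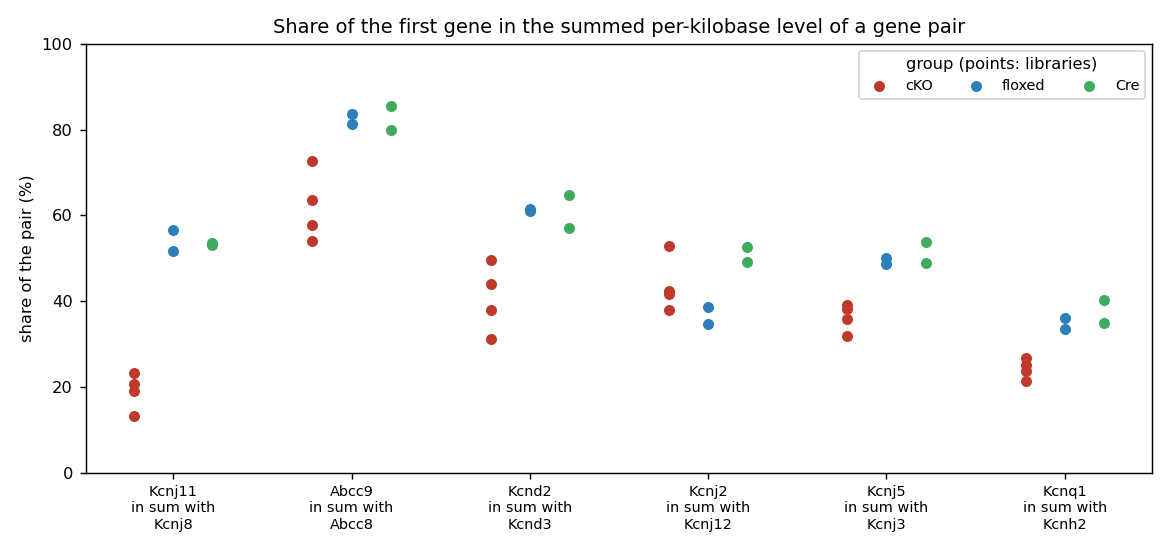
Share in percent of the first gene of a pair in the summed per-kilobase level of both, for 6 pairs; each point is a library. For 5 of the pairs the cKO points lie under all floxed and Cre points, and for Kcnj2 with Kcnj12 they overlap. In each of those 5 pairs the first gene was called lower and the second was not called, so lower shares largely follow from the choice of pairs. The pair of Kcnk3 with Kcnk6 is not drawn and overlapped (97.3% to 97.9% in cKO, 97.9% to 98.6% in controls). No background of other gene pairs was made.

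Delayed rectifier genes moved in both directions. Of 31 genes in the list 20 were tested, of which 3 fell and 5 rose. These shares of 15% and 25% stand beside 26.5% lower and 25.6% higher over all genes tested. The median log2 value of the list was 0.33, beside 0.04 over all genes tested. Kcnq1, the pore of the slow delayed rectifier, fell 1.58-fold (log2 -0.66, SE 0.13; adjusted p = 0.00138), from 41.6 ± 5.36 to 26.4 ± 3.93 CPM (SD, n = 4 each). Its antisense transcript Kcnq1ot1 shares 121 exon bases with it, and without a known strand setting reads there cannot be told apart. Kcna7, a pore of the Shaker family found in heart and skeletal muscle, fell 2.47-fold (log2 -1.30, SE 0.25; adjusted p = 0.00177), with 3.61 to 7.57 CPM in cKO and 11.8 to 16.0 CPM in controls.

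Kcnh2, Kcna5 and Kcne1, the other cardiac delayed rectifier genes, were not called. Kcnh2, the pore of the rapid delayed rectifier, was at 107 to 123 CPM in cKO and 97.7 to 108 CPM in controls (log2 0.17, SE 0.09; adjusted p = 0.116). It was called higher under upper-quartile scaling and under library size alone (log2 0.28 and 0.29), while with the offset for length and GC it was at -0.10; its adjusted p ranged from 0.0167 to 0.350 over the alternatives. Kcna5, the pore of the ultrarapid current, was at 19.3, 20.4, 33.1 and 49.4 CPM in cKO and at 14.4 to 24.2 CPM in controls. The cKO hearts spread over a wider range than the controls did, and the difference (log2 0.67, SE 0.32; adjusted p = 0.119) was called by DESeq2 and without cKO replicate 1 only (adjusted p from 0.0215 to 0.801 over the alternatives). Kcne1, the accessory subunit of Kcnq1, was at 6.77 to 9.90 CPM in cKO and 3.36 to 11.8 CPM in controls (log2 0.19, SE 0.33; adjusted p = 0.652). Without Cre replicate 1, the highest library, it was called higher (log2 0.78), and without Cre replicate 2, the lowest, its value was -0.14; its adjusted p ranged from 0.00482 to 0.845 over the alternatives.

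The rises among delayed rectifier genes were small in level. Kcna1, a Shaker pore of axons, rose from 4.85 ± 1.21 to 7.17 ± 0.98 CPM (log2 0.56, SE 0.18; adjusted p = 0.0229). Kcnc2, a pore of fast-spiking neurons, rose from 0.63 ± 0.08 to 1.37 ± 0.49 CPM (log2 1.12, SE 0.35; adjusted p = 0.0196), and Kcnab2, a cytoplasmic beta subunit, from 1.47 ± 0.28 to 2.16 ± 0.18 CPM (log2 0.57, SE 0.21; adjusted p = 0.0390; SD, n = 4 each).

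Those calls lay near the threshold and were lost with fewer libraries. Kcna1 was not called without cKO replicate 3, floxed replicate 2 or Cre replicate 2 (log2 0.38 to 0.77 with 1 library left out; adjusted p from 0.00575 to 0.101 over the alternatives), and Kcnc2 without cKO replicate 4, floxed replicate 2 or Cre replicate 2 (log2 0.90 to 1.31; adjusted p 0.00820 to 0.0715). Kcnab2 was not called when any 1 of the 8 libraries was left out (adjusted p 0.0169 to 0.165), though its log2 value stayed between 0.53 and 0.62. Kcnip3 was not called without cKO replicate 4, floxed replicate 1 or Cre replicate 1 (log2 0.55 to 0.88; adjusted p 0.0106 to 0.105). Of the nerve and glia markers, Tubb3, a tubulin gene of neurons, rose in the same hearts (log2 1.12, SE 0.43; adjusted p = 0.0475), while Sox10 (-0.03) and S100b (0.33) were not called; their part in the rises was not tested. Another delayed rectifier rise was that of Kcnc4 (log2 1.14), which lies under 1 CPM like Kcnd1 of the transient outward list (log2 1.01, adjusted p = 0.0456); these 2 fall outside the rule for naming and were named after their values were seen.

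**Figure D4:**
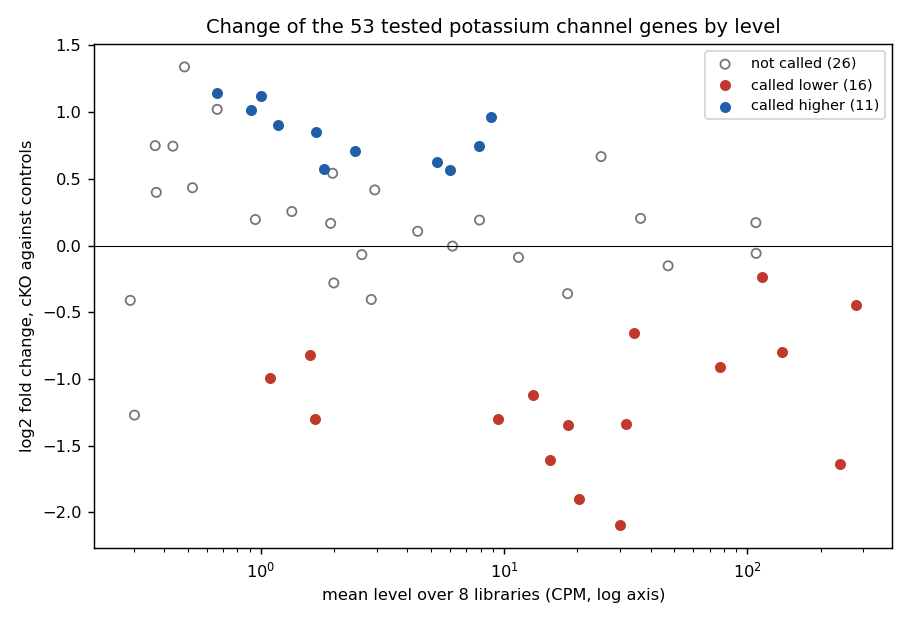
Log2 fold change in cKO against controls (vertical axis) by mean level in CPM over the 8 libraries (horizontal log axis) for the 53 tested members, with filled points for called genes. Of the 19 members at 10 CPM or more 12 are called lower and none higher; the rises all lie under 10 CPM.

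Silent subunits form no channel alone and modify other voltage-gated pores. Kcnv2 was the rise that was called in every setting tried, at 8.63, 14.2, 14.7 and 9.14 CPM in cKO, 6.64 and 5.21 CPM in floxed, and 4.63 and 7.52 CPM in Cre. The lowest cKO heart lay just over the highest control, and the rise was 1.95-fold (log2 0.96, SE 0.22; adjusted p = 0.00498). Kcng2, the other silent subunit tested, was among the more abundant members at 102 to 109 CPM in cKO, 146 and 134 CPM in floxed, and 117 and 104 CPM in Cre. Its cKO values overlapped those of the Cre hearts. The fall was small (log2 -0.24, SE 0.08; adjusted p = 0.0311), with -0.41 against floxed and -0.07 against Cre, of which only the first was called; the difference between these 2 comparisons was not called (log2 -0.34, adjusted p = 1). Among other settings, Kcng2 was not called under upper-quartile scaling, library size alone or pooled controls, nor without cKO replicate 2, cKO replicate 3, floxed replicate 1 or Cre replicate 1, and with the offset for length and GC its fall was log2 -0.62 (adjusted p from 0.000176 to 0.400 over the alternatives).

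Of the tandem-pore leak genes (also called two-pore) 5 of 14 were tested and 1 was called (20%, beside 52.1% of all genes tested). Kcnk3, the acid-sensitive leak channel and the highest of all members per kilobase, was at 218, 244, 273 and 212 CPM in cKO, 325 and 307 CPM in floxed, and 305 and 355 CPM in Cre. The groups did not overlap, and the fall was 1.36-fold (log2 -0.45, SE 0.10; adjusted p = 0.00433), or log2 -0.69 with the offset for length and GC. The stretch-activated Kcnk2 (log2 0.42, SE 0.24) was not called.

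Among calcium- and sodium-activated genes 7 of 12 were tested, of which 2 fell and 2 rose. These shares of 28.6% each lay near the 26.5% lower and 25.6% higher over all genes tested. Kcnn2, a small-conductance calcium-activated channel of atrial and ventricular muscle, was at 8.42, 9.93, 7.83 and 6.82 CPM in cKO and at 15.9 to 19.9 CPM in the 4 controls. The cKO hearts lay well under the controls, with a fall of 2.18-fold (log2 -1.12, SE 0.13; adjusted p = 6.21e-05). Its relative Kcnn3 fell from 2.05 ± 0.36 to 1.14 ± 0.18 CPM (log2 -0.82, SE 0.24; adjusted p = 0.0133; SD, n = 4 each). Without Cre replicate 1, and with the offset for length and GC (log2 -0.33), it was not called (adjusted p from 0.0122 to 0.306 over the alternatives). Kcnn1 was not called (log2 -0.09).

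Both sodium-activated channel genes rose. Kcnt2 was at 6.47, 7.66, 5.01 and 6.63 CPM in cKO and at 3.61 to 4.81 CPM in controls (log2 0.63, SE 0.17; adjusted p = 0.0112). It was not called without floxed replicate 1 or Cre replicate 1 (adjusted p from 0.000843 to 0.0564 over the alternatives). Kcnt1 rose from 0.84 ± 0.39 to 1.51 ± 0.13 CPM (log2 0.91, SE 0.29; adjusted p = 0.0210), with 1 floxed heart inside the cKO range. It was not called without cKO replicate 3, floxed replicate 2, Cre replicate 1 or Cre replicate 2 (0.0116 to 0.0822). Kcnma1, the large-conductance calcium-activated pore, had too few counts to be tested, with 29 estimated counts over the 8 libraries.

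**Figure D5:**
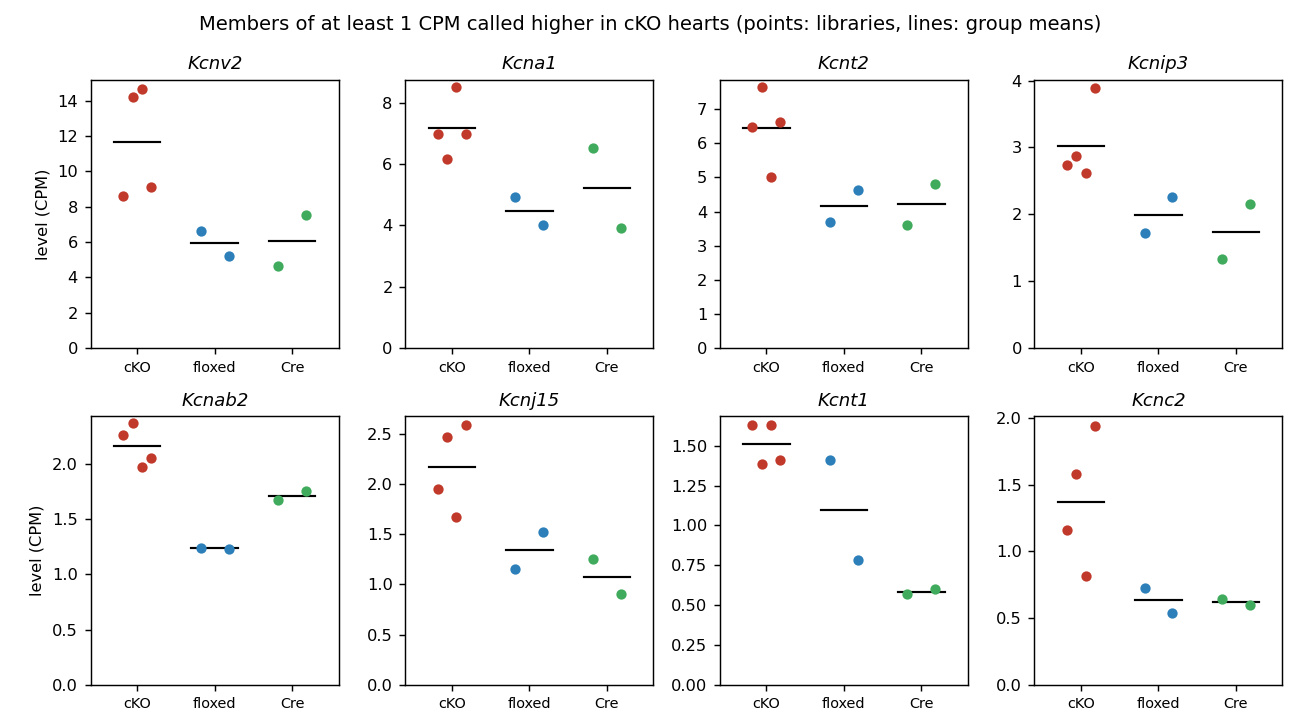
Level in CPM (vertical axes from 0) of 8 members of at least 1 CPM called higher in cKO; each point is a library and each line a group mean. Most panels hold levels under 10 CPM, and in Kcna1 and Kcnt1 the cKO and control points overlap.

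Per kilobase, the order of the control hearts was led by Kcnk3 (84.8 ± 6.07 CPM per kilobase), Kcnip2 (56.5 ± 2.29), Abcc9 (48.6 ± 3.95) and Kcng2 (44.5 ± 6.65), of which the last 2 lie within their spread (SD, n = 4). Next came Kcnh2 (24.1 ± 1.05), Kcnj5 (21.5 ± 1.07) and Kcnj3 (21.3 ± 2.78), then Kcnj11 (15.5 ± 1.89), Kcnq1 (13.7 ± 1.77) and Kcnj8 (13.3 ± 1.04). Within each of these 2 sets the SDs overlap, apart from those of Kcnh2 and Kcnj5. Such overlap concerns the spread between hearts and does not compare genes within a heart. Kcnj11, for one, was above Kcnj8 in every control heart (51.7% to 56.6% of their sum). In the cKO hearts Kcnk3 still led (62.1 ± 7.23), followed by Kcng2 (37.5 ± 1.04), Kcnip2 (32.6 ± 4.29), Kcnh2 (27.2 ± 1.97) and Kcnj3 (20.4 ± 4.50). The SDs of Kcng2 and Kcnip2, and of Kcnip2 and Kcnh2, overlap between hearts, and their order within a heart was not tested. Abcc9 (15.6 ± 4.86) was then level with Kcnj8 (15.3 ± 1.94), and Kcnj11 was at 3.62 ± 1.08.

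Set against each control group alone, 15 members were lower and 6 higher than in floxed hearts, and 13 lower and 6 higher than in Cre hearts. The background for all genes was 42.9% called against floxed (23.1% lower and 19.8% higher) and 42.4% against Cre (22.8% lower and 19.6% higher). These comparisons share the 4 cKO hearts. Members lower against each of them numbered 12, among them Kcnk3, Abcc9, Kcnip2, Kcnj5, Kcnq1, Kcnj2, Kcnj11, Kcnj12, Kcnd2, Kcnn2 and Kcna7. Those higher against each numbered 3, among them Kcnv2 and Kcnt2. Kcnj11 was at log2 -2.21 against floxed and -1.98 against Cre, Kcnd2 at -1.69 and -1.53, and Abcc9 at -1.59 and -1.69.

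No member was called in Cre against floxed, where 0.0981% of all genes were (edgeR; 0.0916% lower and 0.00654% higher). DESeq2 and limma voom called none either. In edgeR, 4 of the 53 tested members had an unadjusted p under 0.05: Kcng2, Kcnj2, Kcnab3 and Kcnn4. The share of all genes at that unadjusted cut was not counted, and the 0.0981% is at an adjusted p. These 4 are therefore not set against a background. Over all genes tested, rises against floxed numbered 3031 with all 8 libraries and 2714 without cKO replicate 2. Rises over all genes against a control group also became fewer where 1 library was left in it. Among members, the numbers higher against a single control group were small and depended on the hearts kept. Against floxed none was called without floxed replicate 1, none without floxed replicate 2 and 3 without cKO replicate 2, and against Cre 2 were called without Cre replicate 1 and 1 without Cre replicate 2.

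The 12 members lower against each control group were also called lower than both controls together in every one of the 19 alternatives, and no other member that fell was. Among the 16 called lower, cKO replicate 1 had the highest of the 4 cKO values for 9 genes and cKO replicate 4 the lowest for 10. cKO replicate 1 had the smallest total of counts (17509564), and cKO replicate 4 the lowest sum of cardiomyocyte markers (51815 CPM) and the highest of fibroblast markers (1396 CPM). Their part in this spread was not tested. Elmsan1 was at 15.2 CPM in the first and 12.0 CPM in the second.

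Transcripts of tested members were somewhat longer than those of tested protein-coding genes (median 4095 against 3438 bases) and richer in G and C (53.3% against 49.9%), measures with which fold changes move in these libraries. Members called lower had a median length of 3746.5 bases and those called higher 5046 bases, with 54.8% and 53.8% G and C. With an offset per library for both measures 15 of the 53 tested members were lower and 9 higher. Of all 15289 genes tested, 3670 were lower and 3252 higher with that offset. Kcnj11 was then at log2 -2.31, Kcnd2 at -1.30, Abcc9 at -1.21 and Kcnj2 at -1.02, all still called.

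Members with few counts account for the rest. Of the 43 not tested, 9 had no counts in any library: Kcnk9, Kcnk15, Kcnk16, Kcnk18, Kcnh5, Kcna10, Kcns2, Kcnf1 and Kcnj13. A count of 0 allows up to 3 counts, or 0.116 to 0.171 CPM depending on the library, and this limit covers counting error only. The other 34 ranged up to a mean of 0.30 CPM (Kcns3). They included Kcne2 and Kcne3, accessory subunits of several pores, and Kcnj6 and Kcnj9, the acetylcholine-gated subunits of brain.

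Proteins that work with these channels under other names were counted beside the same background of 26.5% lower and 25.6% higher over all genes tested. Of 15 accessory and anchoring genes 12 were tested, of which 4 fell and 1 rose, a share called (41.7%) under the 52.1% of all genes, with a list median of log2 -0.13 beside 0.04 over all genes. Ank2, the ankyrin that anchors membrane transporters, was at 66.2 to 83.0 CPM in cKO and 141 to 172 CPM in controls, and fell. Dlg1, a scaffold that binds inward rectifiers and Shaker pores, fell by 0.71 on the log2 scale, Akap9, which brings protein kinase A to Kcnq1, by 0.67, and Amigo1, a membrane protein that accompanies voltage-gated pores, by 0.60. The rise was that of Cav3, muscle caveolin (log2 0.57), which was named after its value was seen. Dpp6, an accessory subunit of Kcnd pores in neurons, had 21 counts in all and was not tested.

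Of 8 transcription regulators of potassium current genes 5 fell and none rose (62.5% lower, beside 26.5% of all genes tested; median log2 -0.41). Esrrg, an oestrogen-related receptor of oxidative muscle, fell 4.14-fold (log2 -2.05, SE 0.17), from 43.3 ± 1.31 to 10.5 ± 2.92 CPM (SD, n = 4 each). Irx3 fell 2.29-fold, and Irx5, a homeobox factor that represses Kcnd2 toward the inner wall of the mouse ventricle, by 0.71 on the log2 scale. Nfatc3, a calcineurin-dependent factor, fell by 0.41 on that scale.

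Among 9 genes of the sodium-potassium pump and of the cation channels of the reticulum 5 fell and 2 rose (55.6% and 22.2%, beside 26.5% and 25.6% of all genes tested; median log2 -0.32). Atp1b1, a beta subunit of the pump, fell by 0.73 on the log2 scale and Tmem38b, a cation channel of the reticulum, by 0.87. Fxyd5 (log2 1.22) and Fxyd1 (0.50), small regulators of the pump, rose; Fxyd1 was named after its value was seen.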

How the data were processed

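Whole-heart RNA of 8 mice was sequenced, and the authors deposited estimated counts per Ensembl gene, expected counts not scaled to depth. STAR 2.5.1b, DESeq2, mm10 and GRCm38 are named in the submitters' processing notes. Not given in the sources used here are the counting program, annotation and strand setting, so exon overlaps (12 of the 33 named members) leave uncertainty. Symbols, positions and lengths are from GENCODE M21. Counts were rounded, filtered with filterByExpr (15289 genes left), scaled by TMM and fitted over all 8 libraries (a mean for each of 3 groups, leaving 5 residual degrees of freedom) in edgeR 4.0.16 (R 4.3.3, robust quasi-likelihood F test, Benjamini-Hochberg over all genes tested); the procedure was tested on simulated data. SE is the log2 fold change over the root of F. CPM values are mean ± SD. Alternatives used DESeq2 1.42.0, limma 3.58.1 and mgcv 1.9.3 (offset; 99.5% of tested genes had length and GC). Figures used matplotlib 3.10.9. Named genes are 20 preset cardiac members, other members called at a mean of at least 1 CPM, and uncalled members by value; partner genes are up to 4 called per list by smallest p, plus Dpp6 and Irx5. Members and lists were chosen with earlier results of these data known. A few genes counted here are not reported by name.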

Additional observations from a re-analysis of the deposited data

Results flagged for a closer look

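The groups of 4 cKO libraries were searched for a single library far from the others in 33 named members; chance alone would flag about 1 in 20 such groups. Kcnj3 was at 141 CPM in the highest cKO library, replicate 2, and at 97.8 CPM in the next, a gap just past the size that flags a group of 4. Kcnj12 was at 13.1 CPM in the highest, replicate 3, and at 9.52 CPM in the next, a gap of 0.932 of the range. Neither value changes a call, since Kcnj3 was not called without cKO replicate 2 and Kcnj12 stayed called without cKO replicate 3.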

How the results depend on the processing

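The falls of 12 members were called in all 19 alternatives, and of the rises of at least 1 CPM only Kcnv2 was. Counts of members lower stayed within 1.5 times under every alternative. Over all genes tested, rises against both controls numbered 3909, with 3007 under the replicate block and 2615 at an adjusted p under 0.01. Against floxed they numbered 3031, with 2389 and 1657 in the same settings. Against Cre they numbered 2997, with 3657 under upper-quartile scaling and 1673 at an adjusted p under 0.01. For members higher, the count against both controls (11) was 3 with the replicate block and 2 at an adjusted p under 0.01; against floxed (6) it was 2 and 0; against Cre (6) it was 11 with upper-quartile scaling and 0 at an adjusted p under 0.01. Leaving out 1 library gave 4 to 11, 0 to 6 and 1 to 7. The labels share replicate numbers without saying that a number marks a litter or day. The deviations of same-numbered libraries from their group means had correlations of -0.108 to 0.133. With 2 libraries in a control group their deviations are exact opposites, so few of these values are independent. They cannot settle whether a number marks a batch, and the main fit left the numbers out. That numbering is itself doubtful, since the library names number the floxed hearts differently from the titles; paired by library name, cKO replicate 2 with floxed replicate 1 and cKO replicate 3 with floxed replicate 2 had correlations of 0.105 and 0.139. With the numbers of the titles, under the replicate block 13 members were lower and 3 higher than both controls, and Kcng2 (log2 -0.207, adjusted p = 0.171; range over its alternatives 0.000176 to 0.400) was among the calls lost. Directions turned for uncalled genes only: Kcnj3 (log2 0.0506 with upper-quartile scaling, 0.0512 with library size alone, 0.103 with the replicate block, 0.247 with the length and GC offset, and from -0.218 without cKO replicate 2 to 0.0216 without cKO replicate 4 and 0.0513 without Cre replicate 1), Kcnh2 (-0.096) and Kcnd3 (0.0185) with that offset, and Kcne1 (-0.143 without Cre replicate 2, 0.784 without Cre replicate 1). The causes were not tested. Members under 1 CPM rest on few counts.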
